A study of Mus musculus with 12 samples.

Results

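The myogenic regulatory factors are the 4 genes Myod1, Myf5, Myf6 and Myog. They were taken by gene symbol from the table of each library, where each symbol matched a single gene, out of 16288 genes listed in at least 1 library. All 4 were listed in every library, with whole-number counts throughout, and all 4 passed the low-count filter that left 12545 genes for testing. RNA was sequenced from C2C12, an immortalized mouse myoblast line that fuses into myotubes when serum is lowered. Each of 6 groups had 2 libraries, A and B, which the series' design text calls biological duplicates. The growth-medium groups (GM) were proliferating cells in 10% fetal bovine serum, treated for 12 h with DMSO, the vehicle, or with 50 uM PFI-3. The differentiation-medium groups (DM 24h and DM 48h, also written as 24 h and 48 h) received the same 12 h pretreatment, then 2% horse serum with insulin at 2 ug/ml for 24 h or 48 h, with DMSO or PFI-3 renewed every 24 h. PFI-3 binds the bromodomains of BRM (gene Smarca2) and BRG1 (gene Smarca4), the ATPases of the SWI/SNF chromatin-remodelling complexes, and of PB1 (gene Pbrm1). The series compared PFI-3 with DMSO at each stage, as a test of these bromodomains in muscle differentiation. All groups come from a single cell line and a single dose, so the results concern that line and that dose.

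Myogenic regulatory factors are basic helix-loop-helix proteins that bind E-box DNA as dimers with E proteins such as the product of Tcf3. Myod1 and Myf5 mark and commit myoblasts, Myog (myogenin) is switched on as cells leave the cycle and is needed for terminal differentiation, and Myf6 (MRF4) is a late factor of the differentiating and mature fibre. They act with MEF2 factors on the promoters of muscle genes, MyoD recruits SWI/SNF complexes to such promoters, and Id proteins oppose them by taking up E proteins.

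Summed expected counts lay between 12576374 and 13658352 per library. The 2 libraries of a GM group differed more than those of a DM group. The SD of the log2 ratio between libraries A and B, over genes averaging 50 counts or more, was 0.367 (DMSO) and 0.333 (PFI-3) in GM and 0.144 to 0.168 in the DM groups. Chi-square over its degrees of freedom was 18.6 and 13.8 for the GM pairs and 1.74 to 2.11 for the DM pairs. The 8 myoblast markers checked were all listed, with a summed level of 1233 to 5314 CPM (counts scaled to a common library size with edgeR's TMM factors) across libraries. The summed level of 4 endothelial markers was 0.0727 to 1.80 CPM and that of 4 macrophage markers 1.03 to 9.55 CPM, with Adgre1 at 0. The adipocyte list summed to 14.0 to 29.8 CPM with Plin1 at 0. The chondrocyte list summed to 57.5 to 98.9 CPM, with Sox9 alone at 57.0 to 98.5 CPM. Acan, a defining chondrocyte gene, and Ibsp, a defining osteoblast gene, were at 0 in every library. The summed level of the osteoblast list, nearly all of it from Spp1 and Runx2, was 1455 and 2167 CPM in the GM DMSO libraries, 1077 and 2928 CPM in the GM PFI-3 libraries and 415.9 to 937.4 CPM in the DM libraries, and its part in the results was not tested.

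Myog is the factor whose level moved furthest, so the DNA just upstream of its start is shown. The gene (identifier 17928) lies on chromosome 1 at chr1:134290004-134292548 on the plus strand (RefSeq, GRCm38, the assembly also called mm10), has 3 exons and overlaps no other gene of the GENCODE annotation. The 250 bases upstream of its RefSeq start, chr1:134289754-134290003 (plus strand, GRCm38.p6, from RefSeq), are given 5′ to 3′. Capitals mark the matches to the motifs searched on both strands.
Myog upstream 250 bases: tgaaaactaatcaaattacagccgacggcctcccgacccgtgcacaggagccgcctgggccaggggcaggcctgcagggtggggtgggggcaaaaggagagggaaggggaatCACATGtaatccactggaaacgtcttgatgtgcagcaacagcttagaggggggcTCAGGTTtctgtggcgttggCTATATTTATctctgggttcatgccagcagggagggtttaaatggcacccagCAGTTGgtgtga
The window holds E-boxes (CANNTG) as CACATG at positions -138 to -133 and as CAGTTG at -12 to -7, counted back from the RefSeq start. It holds the MEF3 motif TCAGGTT at -84 to -78. GENCODE starts the gene at chr1:134289989, so by that annotation the CAGTTG at chr1:134289992-134289997 lies inside the gene. A MEF2 site searched in its full form gave no match, whereas the form with its last base left free matched CTATATTTAT at -64 to -55. That relaxed form was chosen after the window had been seen. No CArG box and no TATAAA was found there, and neither E-box was of the form CAGCTG or of the form CAGGTG. Among 32851 windows of the same length upstream of RefSeq starts, 66.2% held an E-box, 3.49% the MEF3 motif, 2.92% the full and 7.03% the relaxed MEF2 site, 1.47% the CArG box, 13% CAGCTG, 17.2% CAGGTG and 12.4% TATAAA. These matches are letters in a window and carry no measurement of binding.

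Myog went from near absence in growth medium to one of the most abundant transcripts of the differentiating cells. Its counts in GM were 2 and 5 with DMSO and 6 and 12 with PFI-3. With DMSO they were 10687 and 10823 at 24 h and 22401 and 22557 at 48 h. With PFI-3 they were 5413 and 5251 at 24 h and 15495 and 15104 at 48 h. No DM library came near any GM library, and at both DM times the PFI-3 libraries lay below both DMSO libraries. As FPKM, which divides by transcript length and library size and so allows genes to be set side by side, the DMSO mean was 0.175 ± 0.106 (SD, n = 2) in GM, 583.9 ± 7.22 at 24 h and 1217 ± 8.15 at 48 h. With PFI-3 the means were 0.46 ± 0.212, 291.4 ± 6.003 and 844.4 ± 16.7 FPKM.

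Ranked by mean FPKM among genes above 0, Myog stood at place 11919 of 14264 in GM with DMSO, at 99 at 24 h and at 32 at 48 h. With PFI-3 its places were 11275, 218 and 67. In the edgeR quasi-likelihood test fitted on all 12545 genes, with Benjamini-Hochberg adjustment over all of them and calls at an adjusted p under 0.05, the Myog rise with DMSO was 11.58 on the log2 scale at 24 h (SE 0.157, adjusted p = 2.05e-13). From DM 24h to DM 48h it was a further 1.12 (SE 0.0751, adjusted p = 1.55e-07). Because the GM count was so low, the size of the first rise is loosely fixed, and its SE of 0.157 is too small. The ratio of summed counts, scaled by library size, was 3165 with a 95% interval of 1536 to 7873 from counting error alone. With PFI-3 the same ratio was 627, with an interval of 396.5 to 1058.

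Myog was lower with PFI-3 in differentiating cells. At 24 h Myog was at 847.1 and 837.7 CPM with DMSO and at 411.9 and 400.5 CPM with PFI-3, a log2 change of -1.05 (SE 0.0755, edgeR adjusted p = 2.4e-06), which left it at 48.2% of the DMSO level. At 48 h it was at 1822 and 1845 CPM with DMSO and 1214 and 1179 CPM with PFI-3, a log2 change of -0.62 (SE 0.0744, adjusted p = 8.37e-05), or 65.3% of DMSO. Both differences were larger than the spread between replicates. The summed level of the myoblast markers was lower with PFI-3 at each stage. It went from 1716 and 1677 to 1233 and 1236 CPM in GM, from 3481 and 3509 to 2557 and 2532 CPM at 24 h and from 5314 and 5278 to 4421 and 4236 CPM at 48 h. Called lower were 6 of the 8 in GM, 5 at 24 h and 4 at 48 h, and 1 was called higher at 24 h. Over all tested genes 6.15%, 11.4% and 14.0% fell, and 12.2% rose at 24 h. Of these markers Des and Cdh15 are also on the target list used below. The summed level of the adipocyte list at 24 h was 14.7 and 14.0 CPM with DMSO and 23.3 and 25.6 CPM with PFI-3. The part of either list in the result was not tested. In bulk RNA, fewer cells that express Myog and less Myog RNA per cell cannot be told apart. The call at 48 h was lost under limma on log2(FPKM + 0.1), at -0.53 (adjusted p = 0.158). In GM the fold change had the other sign, at 1.25 (SE 0.438, adjusted p = 0.146), was not called and rested on 7 reads with DMSO against 18 with PFI-3, a ratio of 2.43 with a counting interval of 0.970 to 6.90.

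The difference between stages in the PFI-3 effect on Myog was tested by interaction terms. PFI-3 had been present for 12 h in GM and for a further 24 h or 48 h in the DM groups. Stage and length of exposure therefore cannot be told apart in these terms. The effect at 24 h minus that in GM was -2.31 (SE 0.441, edgeR adjusted p = 0.0175), and at 48 h minus GM it was -1.87 (SE 0.442, adjusted p = 0.0182). The effect at 48 h minus that at 24 h was 0.44 (SE 0.105, adjusted p = 0.0185), so the fall was smaller at the later time. In each of these terms Myog was the 1 factor called, where the share of all tested genes called was 3.37%, 14.5% and 12.1%. These calls were not firm: the comparison of DM 24h with GM was lost without GM DMSO library A (adjusted p = 0.0579), without GM PFI-3 library B (0.196) and without any single DM 24h library (0.0526 to 0.0554). The comparison of DM 48h with GM was lost without GM DMSO library A (-1.41, adjusted p = 0.132) or GM PFI-3 library B (-1.31, adjusted p = 0.270). The comparison of the 2 DM times was lost without any 1 of the 8 DM libraries (0.0631 to 0.0945), with values between 0.42 and 0.46, and under limma on log2(FPKM + 0.1) (0.48, adjusted p = 0.456).

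Set in order, the Myog levels ran from GM DMSO and GM PFI-3, between which no difference was called, through DM 24h PFI-3, DM 24h DMSO and DM 48h PFI-3 to DM 48h DMSO. PFI-3 cells at 48 h were above DMSO cells at 24 h by 0.51 on the log2 scale (SE 0.0744, edgeR adjusted p = 0.000282), a call lost under limma on log2(FPKM + 0.1) (0.53, adjusted p = 0.145). The other steps from GM PFI-3 upward were also called, each by the comparison of the neighbouring groups.

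**Figure D1:**
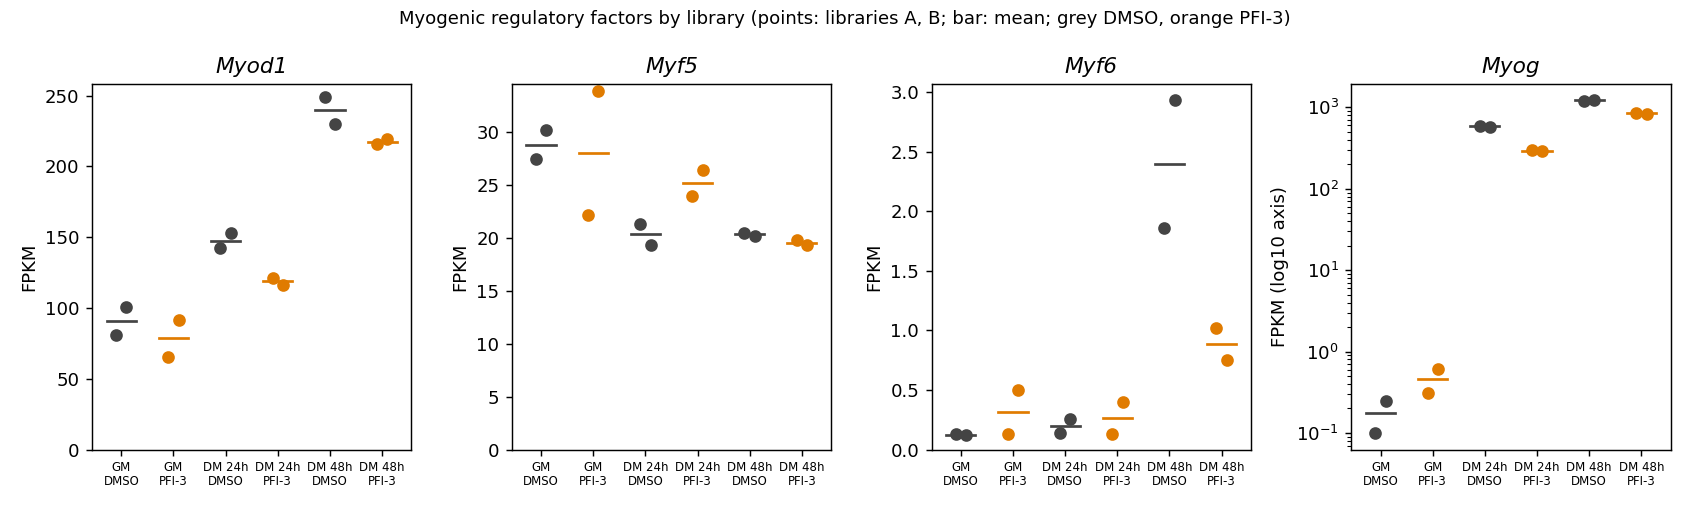
FPKM of the 4 factors in each library (points) with the mean of the 2 libraries (bar), by stage and treatment, on linear axes for Myod1, Myf5 and Myf6 and a log10 axis for Myog. Myog ran from 0.1 FPKM in a GM DMSO library to 1223 FPKM in a DM 48h DMSO library, and its PFI-3 points at both DM times lie below the DMSO points.

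Myod1 (identifier 17927, chr7:46376474-46379092 on the plus strand, RefSeq GRCm38, 3 exons in GENCODE), the factor that commits cells to the muscle lineage, was abundant at every stage and rose through differentiation. With DMSO it was at 153.1 and 180.5 CPM in GM, 252.5 and 272.5 CPM at 24 h and 462.6 and 427.6 CPM at 48 h. With PFI-3 it was at 112.6 and 158.1 CPM in GM, 208.5 and 199.7 CPM at 24 h and 377.7 and 382.8 CPM at 48 h. At both DM times the PFI-3 libraries lay below both DMSO libraries, whereas in GM library B with PFI-3 lay above library A with DMSO.

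The Myod1 rise over GM with DMSO was 0.65 on the log2 scale at 24 h (SE 0.128, edgeR adjusted p = 0.000813) and 1.42 at 48 h (SE 0.129, adjusted p = 7.52e-07). With PFI-3 the rises were 0.59 (SE 0.129, adjusted p = 0.00175) and 1.49 (SE 0.129, adjusted p = 7.85e-07). The rise therefore took place with either treatment, and none of the interaction terms was called for Myod1 (adjusted p from 0.676 to 0.918).

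The PFI-3 effect on Myod1 was small and had the same sign at each stage. It was -0.30 in GM (SE 0.129, adjusted p = 0.150), -0.36 at 24 h (SE 0.127, adjusted p = 0.0574) and -0.23 at 48 h (SE 0.125, adjusted p = 0.206), and no stage was called on its own. Averaged over the 3 stages in a model of stage plus treatment it was -0.30 (SE 0.0767, adjusted p = 0.0146), which left 81.4% of the DMSO level. In that average Myod1 and Myog (-0.77, SE 0.137, adjusted p = 0.00179) were the 2 factors called, against 24.1% of all tested genes. For Myog this average joins stages whose effects differed by the interaction terms, and it did not pass the DESeq2 Wald test (-0.52), nor limma on log2(FPKM + 1) (-0.41) or log2(FPKM + 0.1) (-0.17). Limma also lost the Myod1 average, at -0.22 (adjusted p = 0.0605 and 0.0615). The DM 24h value was called in 8 of 15 alternative fits, and over the 15 it lay between -0.42 and -0.30. Among the 8 was the fit of the 8 DM libraries alone (-0.36, adjusted p = 2.76e-08), whose replicates spread less than those of GM. No call was made under limma at either pseudocount, with a mean of at least 10 counts or without any single DM 24h library. In GM the Myod1 value hung on the PFI-3 libraries: it was -0.57 (adjusted p = 0.00487) without library B and -0.08 (adjusted p = 0.660) without library A.

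Myf5 (identifier 17877, chr10:107482908-107486927 on the minus strand, RefSeq GRCm38, 3 exons in GENCODE), a factor of proliferating myoblasts, was lower in differentiation medium. With DMSO it was at 58.7 and 61.2 CPM in GM, 42.8 and 39.0 CPM at 24 h and 42.9 and 42.5 CPM at 48 h. With PFI-3 it was at 42.9 and 66.0 CPM in GM, 46.6 and 51.2 CPM at 24 h and 39.2 and 38.1 CPM at 48 h. The DMSO libraries fell into a higher GM pair and 4 lower DM libraries, while the GM PFI-3 pair spanned nearly the whole range.

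The Myf5 fall with DMSO was -0.55 at 24 h (SE 0.151, edgeR adjusted p = 0.00721) and -0.49 at 48 h (SE 0.150, adjusted p = 0.0109) relative to GM. The first was lost without DM 24h DMSO library B (-0.49, adjusted p = 0.0584) and the second without DM 48h DMSO library B (-0.48, adjusted p = 0.053). Between DM 24h and DM 48h the difference was 0.06 (SE 0.154, adjusted p = 0.771). With PFI-3 the value at 24 h was -0.16 (SE 0.149, adjusted p = 0.383) and the value at 48 h was -0.50 (SE 0.151, adjusted p = 0.0119), a call lost without GM PFI-3 library B (-0.15, adjusted p = 0.182) or DM 48h PFI-3 library B (-0.48, adjusted p = 0.0636). The value at 24 h was -0.43 (adjusted p = 0.00165) without GM PFI-3 library A and 0.19 (adjusted p = 0.116) without library B. Whether the DM 24h change differed between treatments was tested by the interaction term, which was 0.40 (SE 0.212, adjusted p = 0.369) and not called. PFI-3 against DMSO gave -0.14 in GM (adjusted p = 0.577), 0.26 at 24 h (adjusted p = 0.247) and -0.14 at 48 h (adjusted p = 0.534). At 24 h both PFI-3 libraries lay above both DMSO libraries, and the value of 0.26 was called in 3 of 15 alternative fits, all without the libraries of GM. In GM, Myf5 was at -0.48 (adjusted p = 0.00811) without PFI-3 library B and at 0.14 (adjusted p = 0.345) without library A.

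Myf6 (identifier 17878, chr10:107492848-107494723 on the minus strand, RefSeq GRCm38, 3 exons in GENCODE), the late factor, lies 5920 bases from Myf5 by the RefSeq gene limits. Between GM and DM 48h with DMSO, Myf5 fell whereas Myf6 rose. Its counts in GM were 2 and 2 with DMSO and 2 and 8 with PFI-3. At 24 h they were 2 and 4 with DMSO and 2 and 6 with PFI-3, and at 48 h they were 28 and 44 with DMSO and 15 and 11 with PFI-3. Most libraries before DM 48h were at or near 3 counts, the floor used here, so differences among them were not detectable at this depth.

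With DMSO, Myf6 rose from GM to DM 48h by 4.19 on the log2 scale (SE 0.616, edgeR adjusted p = 5.44e-05). The ratio of summed counts was 19.3, with a counting interval of 7.22 to 72.8. At 48 h it was at 2.28 and 3.60 CPM with DMSO and 1.18 and 0.859 CPM with PFI-3, a log2 change of -1.52 (SE 0.435, adjusted p = 0.0216) and 34.8% of DMSO. The count ratio there was 0.346, with a counting interval of 0.212 to 0.549. That call did not hold in the DESeq2 Wald test (adjusted p = 0.155), with limma on log2(FPKM + 0.1) (0.0685), and without DMSO library B (-1.16, 0.202), PFI-3 library A (-1.76, 0.0819) or PFI-3 library B (-1.31, 0.156). With PFI-3 the rise from GM to DM 48h was 1.48 (SE 0.608, adjusted p = 0.0481), and it was lost without GM PFI-3 library A (0.82, adjusted p = 0.274), without either DM 48h PFI-3 library, with the DESeq2 Wald test (0.125) and without a low-count filter (0.0600). No interaction term of Myf6 was called (adjusted p from 0.0914 to 0.803).

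Counted together, 3 of the 4 factors were called between GM and DM 24h with DMSO, Myod1 and Myog higher and Myf5 lower, where 60.6% of all tested genes were called (30.6% higher, 30.0% lower). All 4 were called between GM and DM 48h, against 73.1% of all genes (37.2% higher, 35.9% lower), and 3 between DM 24h and DM 48h, against 48.1%. With PFI-3 the counts were 2 of 4 from GM to DM 24h, 4 from GM to DM 48h and 2 from DM 24h to DM 48h, where 60.3%, 67.2% and 27.3% of all genes were called. With 4 genes, nothing beyond the share over all genes is read from these counts.

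For PFI-3 against DMSO, none of the 4 was called in GM by edgeR, where 11.6% of all tested genes were. That share uses a spread estimated over all 12 libraries, though GM replicates differed more than DM replicates. The fit of the 4 GM libraries alone called 32 of 11656 genes. Myod1 and Myog had an unadjusted p under 0.05 in GM in the main fit, and the DESeq2 Wald test also called none. Among the alternatives that kept every library, limma on log2(FPKM + 0.1) called Myog in GM, and the replicate block within each stage called Myod1. At 24 h 1 was called, Myog, against 23.6% of all genes, and at 48 h 2 were called, Myog and Myf6, against 27.4%. PFI-3 cells at 48 h against DMSO cells at 24 h gave 3 called factors, all higher, where 35.3% of all genes were called. Besides Myog these were Myod1 (0.53, SE 0.126, adjusted p = 0.0062) and Myf6 (2.07, SE 0.678, adjusted p = 0.0326), while Myf5 was at -0.08 (adjusted p = 0.719). The Myod1 call there was lost without DM 24h DMSO library A (0.48, adjusted p = 0.0635). The Myf6 call there was lost without any 1 of the 4 libraries compared (adjusted p from 0.0667 to 0.183). Over all tested genes the median log2 fold change of PFI-3 against DMSO was -0.01 in GM and under 0.01 in size at both DM times.

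**Figure D2:**
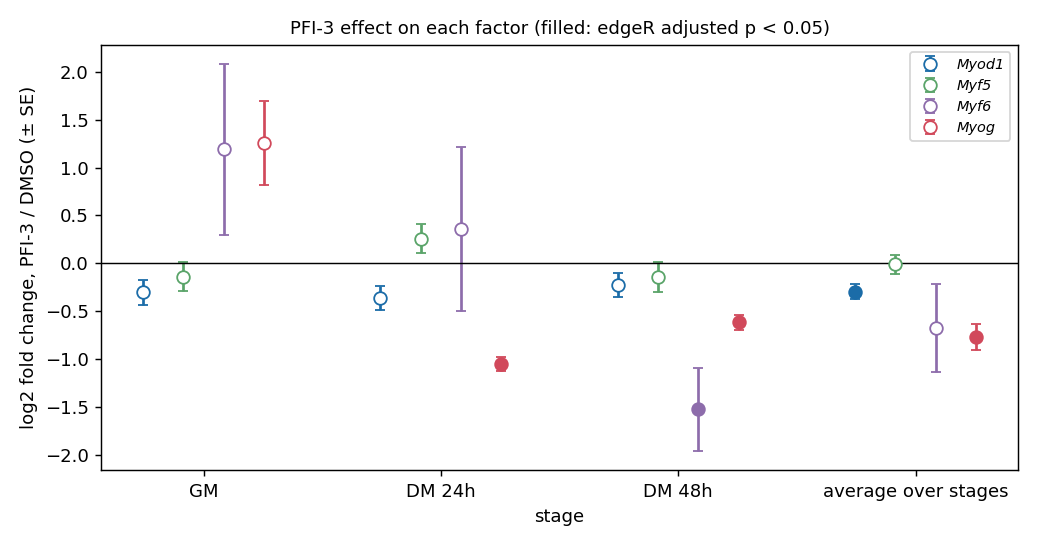
Log2 fold change of PFI-3 over DMSO for each factor (edgeR, error bars ± SE) in GM, at 24 h, at 48 h and averaged over the stages, with filled points where the adjusted p was under 0.05. Myog was at 1.25 in GM (open), -1.05 at 24 h and -0.62 at 48 h, while Myod1 lay between -0.36 and -0.23 at the 3 stages.

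The make-up of the group changed with stage, and this can be read on the FPKM scale. The summed FPKM of the 4 factors with DMSO was 119.8 ± 16.1 in GM, 752 ± 1.25 at 24 h and 1479 ± 5.05 at 48 h (SD, n = 2). With PFI-3 it was 107.4 ± 27.1, 435.6 ± 7.81 and 1082 ± 14.8. In GM with DMSO, Myod1 made up 75.6% ± 1.56 of this sum and Myf5 24.2% ± 1.61, and with PFI-3 the shares were 73.4% ± 1.44 and 25.9% ± 1.17. Myod1 and Myf5 together thus held nearly all of the sum in GM with either treatment.

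At 24 h Myog made up 77.7% ± 0.831 of the sum with DMSO and 66.9% ± 0.179 with PFI-3, and Myod1 made up 19.6% ± 1.00 and 27.2% ± 0.359. The Myf5 share was 2.71% ± 0.185 with DMSO and 5.79% ± 0.493 with PFI-3. At 48 h the Myog share was 82.3% ± 0.832 with DMSO and 78.0% ± 0.471 with PFI-3. The shares of the DMSO and PFI-3 libraries did not overlap at either DM time for Myog, Myod1 or Myf5. These are not separate results, since the shares are parts of the same sum and less Myog alone raises the others. At 24 h the Myod1 share was higher with PFI-3, while its mean level was 204.1 CPM against 262.5 CPM with DMSO. At 48 h the Myf5 share was 1.81% against 1.38%, while its level was 38.6 against 42.7 CPM. At 24 h the Myf5 level was higher with PFI-3, at 48.9 against 40.9 CPM. The ratio of Myog to Myod1 FPKM was 4.14 and 3.79 with DMSO and 2.44 and 2.47 with PFI-3 at 24 h, and 4.86 and 5.32 against 3.97 and 3.80 at 48 h. With 2 libraries a group, an exact permutation test of a single share or ratio cannot reach a p under 0.05, so these are given without one.

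**Figure D3:**
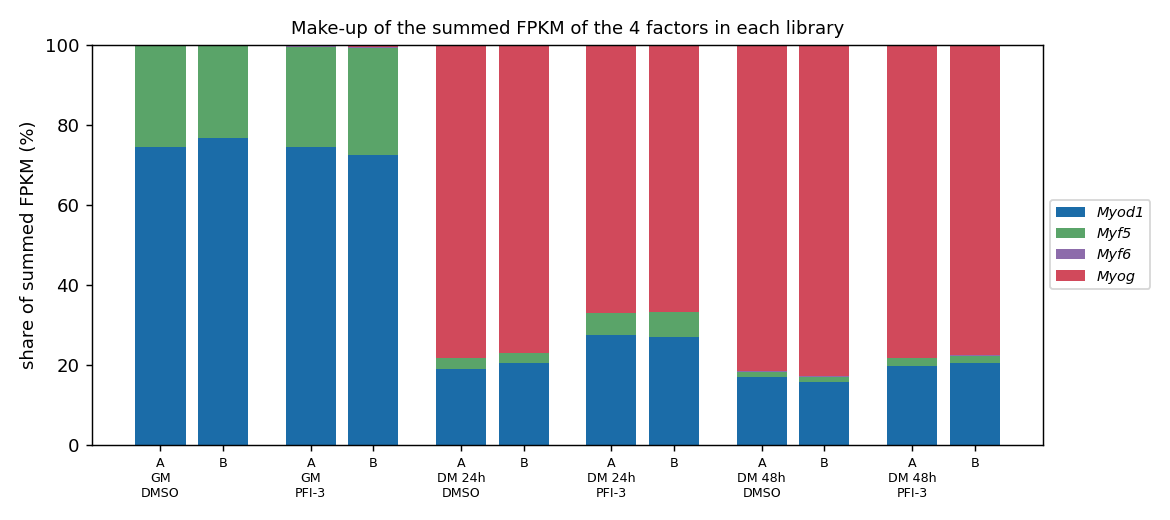
Share of each factor in the summed FPKM of the 4 factors (vertical axis, 0 to 100%), 1 bar per library, by stage and treatment. Myod1 and Myf5 fill the GM bars, and Myog fills 77.7% of the DM 24h DMSO bars and 66.9% of the DM 24h PFI-3 bars on average.

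Genes reported to be targets of these factors were examined as a list of 32, all of which were tested. With DMSO all 32 rose from GM to DM 24h and to DM 48h, where 30.6% and 37.2% of all tested genes rose. Their median rise at 24 h was 7.20 on the log2 scale, against 0.02 for all tested genes. Only 17 of the 32 passed the low-count filter in the fit of the GM libraries alone. The others entered the test through their DM counts, so for them a rise into a DM group was set by the filter. Some GM counts with DMSO were near 0, such as 0 and 0 for Mymx and 1 and 1 for Ckm. The size of the median rise is therefore loosely fixed. Whether the falls of the 32 targets with PFI-3 differ from those of other genes that rose as strongly was not tested. At 24 h 29 of the 32 fell with PFI-3 and none rose, where 11.4% of all tested genes fell and 12.2% rose. The list's median log2 fold change was -1.36 against 0.00 for all tested genes. At 48 h 28 fell and none rose, where 14.0% of all genes fell and 13.4% rose, and the median was -0.73. At that time 16 fell under limma on log2(FPKM + 0.1), the lowest count of the alternatives run.

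The 5 targets with the largest falls at 24 h were Myl4 (-2.33, SE 0.0998), an embryonic myosin light chain, Tnni2 (-2.20, SE 0.164), the inhibitory subunit of fast troponin, Casq2 (-2.13, SE 0.118), a calcium store protein of the sarcoplasmic reticulum, Tnnc1 (-1.92, SE 0.0811), slow troponin C, and Cdkn1c (-1.84, SE 0.115), the cell-cycle inhibitor p57. Their adjusted p-values in edgeR ran from 6.88e-08 to 6.4e-06. Cdkn1c was at 286.1 and 299.5 CPM with DMSO and 82.9 and 81.2 CPM with PFI-3, a larger change than the estimate for Myog in the same libraries, though the difference between the genes was not tested. At 48 h the largest falls were those of Myl4 (-1.70, SE 0.0695), Cdkn1c (-1.59, SE 0.110), Tnni2 (-1.59, SE 0.107), Mymx (-1.39, SE 0.0674), which encodes the fusion protein myomixer, and Tnnt1 (-1.30, SE 0.0798), slow troponin T. Musk, the receptor kinase of the neuromuscular junction, was at 0.06 (adjusted p = 0.766) at 24 h and -0.08 (adjusted p = 0.669) at 48 h. Musk, Des and Chrnd were the 3 targets not called at 24 h and were also not called at 48 h, together with Rbm24; these 4 are named because they were not called.

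In GM, 5 targets were lower with PFI-3 and 1 was higher, where 6.15% of all tested genes fell and 5.46% rose. The named ones were Chrna1 (-1.45, SE 0.0620, edgeR adjusted p = 3.27e-07) and Chrnb1 (-1.02, SE 0.0739, adjusted p = 1.17e-05), which encode acetylcholine receptor subunits, Cdh15 (-1.39, SE 0.114, adjusted p = 2.87e-05), the adhesion protein M-cadherin, and Des (-0.47, SE 0.0890, adjusted p = 0.00691), the intermediate filament protein desmin. Chrna1 was at 189.9 and 188.8 CPM with DMSO and 66.7 and 71.8 CPM with PFI-3. Under the alternatives that kept every library of GM, 3 to 8 targets were called lower there and 0 to 4 higher. The fit of the 4 GM libraries tested only 17 of the 32, with 3 lower and 0 higher, since the others did not pass the low-count filter. The p-values above use a spread estimated for each gene over all 12 libraries, and the GM replicates differed more than the DM replicates.

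The E proteins, the dimer partners of the factors, had log2 changes with PFI-3 between -0.21 and 0.19. Of the 3, Tcf3 fell by 0.21 on the log2 scale at 24 h (SE 0.0567, edgeR adjusted p = 0.0187), while Tcf12 was at -0.16 (adjusted p = 0.0602) and Tcf4 at 0.03 (adjusted p = 0.853). The Tcf3 call at 24 h was lost without any single DM 24h library. None of the 3 was called in GM (adjusted p from 0.0767 to 0.285) or at 48 h (0.0803 to 0.8). In the average over the stages Tcf3 (-0.175, SE 0.0381, edgeR adjusted p = 0.00588) and Tcf12 (-0.134, adjusted p = 0.0288) were called lower. Tcf4 was at 0.08 there (adjusted p = 0.373), and 24.1% of all tested genes were called. On the FPKM scale with DMSO, Tcf3 was at 68.8 ± 2.07 in GM and 47.6 ± 0.240 at 48 h.

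Of 18 inhibitors of the factors, 17 were tested, and they moved both ways. At 24 h with PFI-3 3 rose and 4 fell, where 12.2% of all tested genes rose and 11.4% fell, and at 48 h 4 rose and 7 fell, where 13.4% and 14.0% did. Without 1 of the libraries compared, 1 to 2 rose and 4 fell at 24 h, and 1 to 3 rose and 5 fell at 48 h. Id3, which sequesters E proteins, was at 22.7 and 21.9 CPM with DMSO and 71.3 and 67.4 CPM with PFI-3 at 24 h, a log2 change of 1.64 (SE 0.157, adjusted p = 2.19e-05). Its relative Id1 was called at 48 h (0.95, SE 0.113, adjusted p = 7.38e-05). Twist2, a repressor of MyoD activity, rose at both times (0.86, SE 0.187, adjusted p = 0.0064, and 0.85, SE 0.224, adjusted p = 0.0147). The Notch-pathway repressors went the other way at 24 h: Heyl was at -1.39 (SE 0.141, adjusted p = 3.45e-05), Hey1 at -1.21 (SE 0.197, adjusted p = 0.00115) and Hes1 at -0.78 (SE 0.125, adjusted p = 0.00103). At 48 h Mdfi (-1.20, SE 0.171), an inhibitor that retains the factors in the cytoplasm, and the repressor Bhlhe40 (-1.15, SE 0.0847) had the largest falls among the inhibitors that averaged 5 CPM or more. The estimate for the scarce Msc was larger (-2.67, SE 0.873, adjusted p = 0.0399, mean 1.32 CPM), and it is named after its value was seen. In GM 2 inhibitors rose, Snai2 (0.55) and Mdfic (0.29), and 2 fell, Bhlhe40 (-0.89) and Hes1 (-0.54), where 5.46% of all tested genes rose and 6.15% fell. Without 1 GM library, 1 to 2 rose and 1 to 6 fell there.

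Of 21 upstream and partner factors, 14 were tested, of which 5 rose and 6 fell at 24 h, and 3 rose and 5 fell at 48 h. The shares of all tested genes were 12.2% higher and 11.4% lower at 24 h, and 13.4% and 14.0% at 48 h. Without any 1 of the libraries compared, 2 to 3 rose and 4 to 5 fell at 24 h, and 0 rose and 4 to 5 fell at 48 h. Mef2c, a MEF2 partner that is itself switched on in differentiation, was at 71.8 and 73.3 CPM with DMSO and 13.4 and 13.2 CPM with PFI-3 at 48 h, a log2 change of -2.45 (SE 0.182, adjusted p = 2.35e-06). Its relative Mef2a was lower at 24 h (-0.48, SE 0.0672, adjusted p = 0.000384) and higher at 48 h (0.19, SE 0.0668, adjusted p = 0.0495), and the difference between the times was called (0.67, SE 0.0947, adjusted p = 0.000664). Mef2d was lower at 24 h (-0.38, SE 0.0685, adjusted p = 0.00206) and at 48 h (-0.50, SE 0.0675, adjusted p = 0.000186). The Mef2a value at 48 h and the Mef2d value at 24 h were chosen after they had been seen. Pax7, the satellite-cell factor that acts upstream of Myf5 and Myod1, was lower at both times (-0.66, SE 0.107, and -0.71, SE 0.106). Eya1, a transcriptional coactivator, was higher at both (0.89, SE 0.169, and 0.69, SE 0.178). Pitx3 was lower at all 3 stages (-1.45 in GM, -0.78 at 24 h and -0.99 at 48 h) and was the 1 gene of this list called in GM.

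All 15 cofactors on the list were tested, of which 1 rose and 3 fell in GM, 3 rose and 3 fell at 24 h, and 3 rose and 1 fell at 48 h. Over all tested genes 5.46% rose and 6.15% fell in GM, 12.2% and 11.4% at 24 h, and 13.4% and 14.0% at 48 h. Without 1 of the libraries compared, 0 to 2 cofactors rose and 0 to 4 fell in GM, 0 to 1 rose and 0 to 1 fell at 24 h, and 0 to 1 rose and 0 fell at 48 h. In GM none was called without DMSO library A, in the fit of the 4 GM libraries alone or under limma at either pseudocount. Smarca2, whose product is a target of PFI-3, rose in GM (0.67, SE 0.171, adjusted p = 0.0270) and at 24 h (0.57, SE 0.155, adjusted p = 0.0202), and Smarca4 at 48 h (0.34, SE 0.0773, adjusted p = 0.0068). The arginine methyltransferase Prmt5 fell in GM (-0.34) and at 24 h (-0.37, SE 0.0887, adjusted p = 0.0113).

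**Figure D4:**
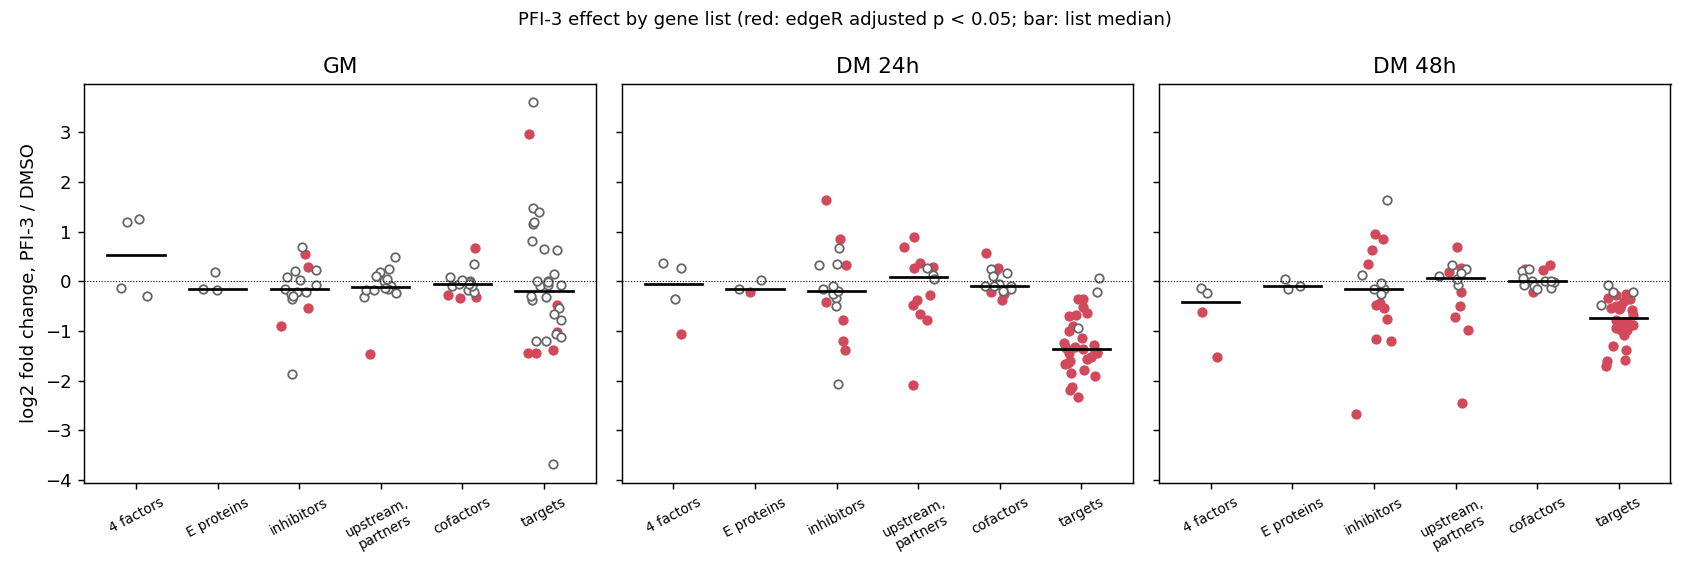
Log2 fold change of PFI-3 over DMSO (vertical axis) for the 4 factors and for each gene of the 5 lists, in GM, at 24 h and at 48 h, with called genes in red and the median of each list as a bar. At 24 h 29 of 32 targets are red and below 0, around a median of -1.36, while the inhibitors and the upstream factors have red points on both sides of 0.

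The genes whose pattern was most like that of each factor were ranked by Pearson's r of log2 CPM over the 12 libraries, among 10367 genes that averaged 5 CPM or more. The libraries share their stages, so a high r is easily reached and serves as a description only. The closest to Myog were Frmpd1 (r = 0.998), Rreb1, Lrch1, Svil and Col6a2. The closest to Myod1 were Patj (0.993), Sorbs2, Tmem120b, Des and Fhod3. Myf5 had Atpaf2 (0.933) and Ccng1 first, and those close to Myf6 included Mast3 (0.953). After the mean of each stage was subtracted, those close to Myog included Ablim3 (0.981), Abca5, Atp2a1 and Svil, and the closest to Myod1 were Sorbs2 (0.968), AI467606, Ubald2, Cand2 and Taf9b. Between the factors themselves r was 0.848 for Myod1 and Myog, -0.759 for Myf5 and Myog, and -0.624 for Myod1 and Myf5. With the stage means subtracted these were 0.437, -0.082 and 0.368.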

How the data were processed

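RNA of C2C12 cells was sequenced in 12 libraries, with group and replicate letter read from the titles. Reads were processed by the sequencing provider, and the submitters' processing notes name HISAT, StringTie, Cufflinks, Bowtie, RSEM and DESeq2 and the build mm10, without versions or roles. The authors deposited 1 table per library with an expected count and an FPKM value per gene, per the file headers, and a gene length in bases. FPKM as deposited is scaled by transcript length and library size. Replicates were not pooled. A gene missing from a table was taken as 0. Strand-specific counting is not given in the sources used here.

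After rounding to whole counts, edgeR's quasi-likelihood test (version 4.0.16 in R 4.3.3, TMM scaling) was run in 1 model of 6 groups over all 12 libraries, after edgeR's low-count filter. The average effect comes from a model of stage plus treatment. Benjamini-Hochberg adjustment of p-values covered 12545 genes. Each SE is the size of the log2 change divided by the square root of the test's F statistic. For genes with few reads in a group, such as Myog in GM, it can be smaller than counting error alone. CPM values use TMM-scaled totals, and log2 CPM used a prior count of 2. Values are mean ± SD with n = 2. Intervals are exact 95% intervals of a ratio of Poisson counts and, like the floor of 3 counts, cover counting error only, since PCR copies without molecular identifiers are not independent molecules. Alternatives were DESeq2 size factors and its Wald test (DESeq2 1.42.0), no filter, a mean of at least 10 counts, limma 3.58.1 on log2(FPKM + 1) and log2(FPKM + 0.1), the 4 libraries compared, the replicate letter as a block, and leaving out each library. A fit of the 8 DM libraries and a block within each stage were added after the data were seen. Named genes were all 4 factors, the E proteins and, of each list, at most the 5 called genes with the largest change and a mean of at least 5 CPM. A few genes that this rule names are not reported here. The factors and gene lists were chosen with earlier results of these data known, so the lists give no independent support. Positions come from RefSeq and GENCODE on GRCm38. Plots used Python 3.11.15 and matplotlib 3.10.9.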

Additional observations from a re-analysis of the deposited data

Results flagged for a closer look

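The PFI-3 effect on Myog differed between stages by the interaction terms. It was -2.31 on the log2 scale for DM 24h minus GM (SE 0.441, edgeR adjusted p = 0.0175), -1.87 for DM 48h minus GM (SE 0.442, adjusted p = 0.0182) and 0.44 for DM 48h minus DM 24h (SE 0.105, adjusted p = 0.0185). The first 2 rest on 7 and 18 reads of Myog in the GM groups, and their SEs can understate the counting error. Length of exposure to PFI-3 differed between the stages as well, so stage and exposure cannot be told apart. Groups of 2 libraries do not allow a check for a single library that stands apart.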

How the results depend on the processing

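Myog at 24 h was called lower with PFI-3 in 15 of 15 alternatives (-1.08 to -1, adjusted p up to 0.022), and Myog at 48 h in 14 of 15. The exception was limma on log2(FPKM + 0.1) (Myog -0.53, adjusted p = 0.158; Myf6 -1.32, adjusted p = 0.0685), where 0 factors were called at 48 h, and Myog in GM was called at 1.03 (1 factor). The DESeq2 Wald test left Myf6 at 48 h at -1.54 (adjusted p = 0.155; 1 factor called). The cause of each change was not tested.

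Myod1 at 24 h became called with DESeq2 size factors (-0.39), the DESeq2 Wald test (-0.39), no low-count filter (-0.36) and the replicate block (-0.36, adjusted p = 0.0450), with 2 factors called in each. It was called at -0.36 in the fit of the 4 libraries compared, with or without the replicate block, and in the 8 DM libraries, where Myf5 was called at 0.26 and 3 factors in all. Those 3 fits gave Myod1 at 48 h as -0.23, called in each. The replicate block within each stage called Myod1 in GM (-0.31, 1 factor), at 24 h (-0.36, 2 factors) and at 48 h (-0.23).

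Without 1 library in turn, the GM effect ranged from -0.57 to -0.0773 for Myod1, from -0.48 to 0.14 for Myf5 and from -0.0591 to 1.84 for Myf6, with 0 to 2 factors called. At 24 h Myf6 ranged from -0.60 to 0.93, and at 48 h from -1.82 to -1.16, with 1 to 2 factors called. From GM to DM 24h with PFI-3, Myf5 ranged from -0.43 to 0.19 and Myf6 from -1.19 to 1.02. From GM to DM 48h with PFI-3, 2 to 3 factors were called, and for PFI-3 at 48 h against DMSO at 24 h 1 to 2.

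For the stage differences in the PFI-3 effect, leaving out 1 library gave 0 to 1 factor called for DM 24h minus GM (Myod1 -0.29 to 0.20, Myf6 -1.79 to 0.42), 0 to 2 for DM 48h minus GM (Myod1 -0.15 to 0.34, Myf5 -0.28 to 0.34) and 0 for DM 48h minus DM 24h. Myf5 for DM 48h minus GM was at 0.0141 and 0.0148 with limma at the larger and smaller pseudocount and at 0.0015 with the replicate block. Limma on log2(FPKM + 1) called 2 factors for DM 48h minus GM and 2 for DM 48h minus DM 24h, and log2(FPKM + 0.1) called 0 for the latter. For the average effect, 1 factor was called by the DESeq2 Wald test and 0 by limma at either pseudocount, where Myf5 was at 0.0572 and 0.0592. Without 1 library that Myf5 average ranged from -0.0749 to 0.0803.

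Over all tested genes, 685 of 1456 calls in GM were higher with PFI-3, against 1057 of 1404 with limma on log2(FPKM + 1). At 48 h these were 1682 of 3438 and 2554 of 3910, and at 24 h 1533 of 2966 and 1863 of 3006. The fit of the 4 libraries compared called 32 genes in GM, 5583 at 24 h and 5688 at 48 h. The replicate letters did not meet the rule for pairing, a correlation over 0.1 at every stage: that of the deviations of libraries with the same letter was 0.395 for GM, 0.013 for 24 h and 0.030 for 48 h. The replicate block moved the GM count from 1456 to 1489 genes, the block within each stage moved it to 2774, and in the fit of the 4 GM libraries the block moved it from 32 to 741. Depth limits Myf6 before DM 48h and Myog in GM.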

Other observations

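In DMSO-treated cells entering differentiation, many of the genes that work with or against the myogenic factors also differed in level between GM and DM 24h. Of the 3 E proteins, Tcf4 rose by 2.06 (SE 0.108) and Tcf12 by 0.96 (SE 0.0592) on the log2 scale from GM to DM 24h, while Tcf3 fell by 0.16 (SE 0.0564, edgeR adjusted p = 0.0275). Of the 17 inhibitors tested, 8 rose and 5 fell over that step, where 30.6% of all tested genes rose and 30.0% fell. Id3 went from 237.7 and 248.8 CPM to 22.7 and 21.9 CPM (-3.45, SE 0.157), Id1 from 119.6 and 111.2 CPM to 17.1 and 14.5 CPM (-2.87, SE 0.106), and Id2 fell by 1.97 (SE 0.221). The Notch-pathway repressor Heyl went from 0 and 0.812 CPM to 145.1 and 150.1 CPM.

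Of the 14 upstream and partner factors tested, 10 rose and 2 fell from GM to DM 24h with DMSO, against the same 30.6% and 30.0% of all tested genes. Mef2a rose by 2.35 (SE 0.0716), Pax7 by 1.96 (SE 0.114), Pitx3 by 1.47 (SE 0.144) and Six4 by 1.43 (SE 0.0625). Mef2c was at 1.74 and 0.929 CPM at DM 24h and at 71.8 and 73.3 CPM at DM 48h. Among cofactors, Prmt5 fell by 1.12 (SE 0.0871) and Smarca2 rose by 1.13 (SE 0.168) from GM to DM 24h.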
